A study of Mus musculus with 8 samples.

Results

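The proteasome genes were read across 8 RNA-seq libraries of sorted splenic CD8+ T cells from mice. Members were all rows of the count table whose symbol starts with Psm, followed by a letter from a to g and a number, and 48 of the 29426 gene symbols in the table met that rule. Psmb8, Psmb9, Psmb10, Psme1 and Psme2, here called the immunoproteasome genes, were set against the other 43. The libraries formed 4 groups of 2, named in the titles by genotype (WT or mCre) and subset (TN or MP) and written WT-TN and WT-MP, or mCre-TN and mCre-MP. All came from bead-enriched CD8+ spleen cells that were stained for CD8, CD4, CD44 and CD122 and sorted. The series title ties Cre to the microRNA miR-29, and its design text writes TN/VM for the subsets. The allele behind the name mCre, the promoter that drove Cre, the age of the mice of each library (adult or neonatal in the protocol) and whether replicates were separate animals were not given in the sources used here. The genes Cd3e, Cd3d, Cd8a and Cd8b1, which define CD8 T cells, summed to between 3842 and 4282 CPM (read counts scaled to a common library size) in every library.

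The proteasome degrades proteins tagged with ubiquitin. Its core particle, 20S, is a barrel of alpha subunits (Psma genes) and beta subunits (Psmb genes), and the regulatory particle, 19S, made of ATPases (Psmc genes) and other subunits (most Psmd genes), recognises, unfolds and feeds in the substrate. The beta subunits Psmb5, Psmb6 and Psmb7 cut peptides, and in lymphoid cells and under interferon-gamma they can be replaced by Psmb8, Psmb9 and Psmb10 respectively, which gives the immunoproteasome. Psme1 and Psme2 form the PA28 cap that opens the core, and together these proteins alter the peptides that the Tap1-Tap2 transporter carries to MHC class I.

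The promoters of 3 immunoproteasome genes are printed because each holds a match to a motif searched for. Those of Psmb9 and Psmb8 also belong to the chromosome 17 locus described below. Each runs from 250 bases before to 50 bases after the RefSeq start (build GRCm38.p6), 5′ to 3′ on the strand of the gene, and capitals mark a match on either strand. The windows are chr17:34187281-34187580 for Psmb9 (minus strand), chr17:34197945-34198244 for Psmb8 (plus strand) and chr14:55578244-55578543 for Psme1 (plus strand).
Psmb9: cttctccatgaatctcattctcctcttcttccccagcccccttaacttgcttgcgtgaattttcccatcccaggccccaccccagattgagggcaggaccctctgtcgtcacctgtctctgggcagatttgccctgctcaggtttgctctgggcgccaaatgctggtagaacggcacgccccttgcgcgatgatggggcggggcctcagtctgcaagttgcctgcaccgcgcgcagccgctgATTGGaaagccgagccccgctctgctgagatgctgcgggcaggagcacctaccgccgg
Psmb8: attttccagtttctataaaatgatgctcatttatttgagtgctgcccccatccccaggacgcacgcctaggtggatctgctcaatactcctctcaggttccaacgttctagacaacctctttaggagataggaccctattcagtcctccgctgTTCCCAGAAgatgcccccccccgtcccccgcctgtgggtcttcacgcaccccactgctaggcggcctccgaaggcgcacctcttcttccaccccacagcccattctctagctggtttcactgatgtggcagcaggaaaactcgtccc
Psme1: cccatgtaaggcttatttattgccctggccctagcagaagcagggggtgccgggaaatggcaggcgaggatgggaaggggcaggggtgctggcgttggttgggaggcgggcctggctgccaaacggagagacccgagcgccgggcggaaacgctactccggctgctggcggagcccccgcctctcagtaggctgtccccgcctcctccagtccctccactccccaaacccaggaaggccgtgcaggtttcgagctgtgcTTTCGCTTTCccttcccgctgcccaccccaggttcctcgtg

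The capitals in Psmb9 are the reverse complement of CCAAT, the box bound by NF-Y, and those in Psme1 are the reverse complement of the core of the interferon-stimulated response element, which was searched for as GAAA, then any 2 bases, then GAAA. In Psmb8 they mark TTCNNNGAA, the core of the gamma-activated site. The fourth motif was TGACNNNGC, the core of the antioxidant response element. Windows were found for 40 of the 48 members, all 5 immunoproteasome genes included. The interferon-stimulated core was in the windows of 5 of these 40 members (12.5%) and of 3.99% of all genes. Of these 5, 1 was an immunoproteasome gene (Psme1), and the other 4 were Psmb3, Psmd4, Psmd9 and Psmg4. TTCNNNGAA was in 3 members (7.5%) and 9.55% of all genes, TGACNNNGC in 6 (15.0%) and 14.0%, and CCAAT in 14 (35.0%) and 41.1%. TGACNNNGC was in the windows of Psmb5, Psmb6, Psmc6, Psmd12, Psmd9 and Psme4, and of 0 of the 5 immunoproteasome genes. With 14.0% of all genes holding it, 5 genes are too few to tell 0 from that share. The windows of Psmb10 and Psme2 held none of the 4 motifs. The match in Psme1 begins 9 bases after the RefSeq start. The 3 printed windows lie inside the GENCODE gene models given below, so RefSeq and GENCODE place these starts differently. A match is a description of the letters, and factor binding was not measured.

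On chromosome 17 (GRCm38, GENCODE M21) the gene models of Psmb9 (34181987 to 34187764, minus strand) and Tap1 (34187553 to 34197225, plus strand) overlap head to head by 212 bases, and their promoter windows share 275 bases, from 34187306 to 34187580. Psmb8 (34197721 to 34201454, plus strand) starts 495 bases after the end of Tap1. Psme1 (55578123 to 55581529, plus strand) and Psme2 (55587441 to 55591113, minus strand) lie on chromosome 14 with 5911 bases between them, and Psmb10 (105935735 to 105938444, minus strand) lies on chromosome 8. Psme1 overlaps Emc9, and Psmb9 overlaps Tap1, on the opposite strand; the strand setting of the counting was not given in the sources used here, so reads from the overlaps could have been counted for either gene. The transcript of the Psme2b copy matched that of Psme2 at 99.4% of 794 aligned positions and was not analysed here, so the Psme2 counts are uncertain.

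The libraries held 13479586 to 30057658 counts, and the 48 members took 0.461% to 0.510% of them. Psma8, a testis alpha subunit, had 4 counts over all 8 libraries (0 or 1 in each), and Psmb11, the beta subunit of cortical thymic epithelium, had 18 (0 to 6 in each); these 2 members did not pass the filter on low counts. The other 46 were tested among 12313 genes. Per kilobase of the principal annotated transcript, the immunoproteasome genes were the most abundant role group. Psme1 was first of the 46 at 356 ± 29.4 CPM per kb (SD over 8 libraries), followed by Psmb8 at 253 ± 19.4 and Psme2 at 243 ± 19.8. The lowest library of Psme1 (322) lay above the highest of Psmb8 (279), whereas the ranges of Psmb8 (220 to 279) and Psme2 (220 to 267) overlapped. Psmb10 stood at 135 and Psmb9, the lowest of the 5, at 100.3.

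The median level was 243 CPM per kb over the 5 immunoproteasome genes, 95.2 over 7 constitutive beta subunits (from 30.1 in Psmb5 to 131.9 in Psmb4) and 58.5 over 7 alpha subunits (33.3 in Psma3 to 139.8 in Psma7). It was 63.5 over the 6 ATPases, 51.3 over 11 non-ATPase subunits, 16.5 over the 3 activators and inhibitors (Psme3, Psme4, Psmf1) and 22.7 over 7 assembly chaperones, the factors that build the particles and then leave. Among the 7 tested constitutive beta subunits Psmb5 (30.1) was lowest and Psmb7 (34.2) next, with overlapping library ranges. Per kilobase of all annotated exons together, Psme1 was again first (179), but Psmb7 (11.6) lay below Psmb5 (30.1) and Psmb9 (37.1) lay below Psmb6 (40.6).

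**Figure D1:**
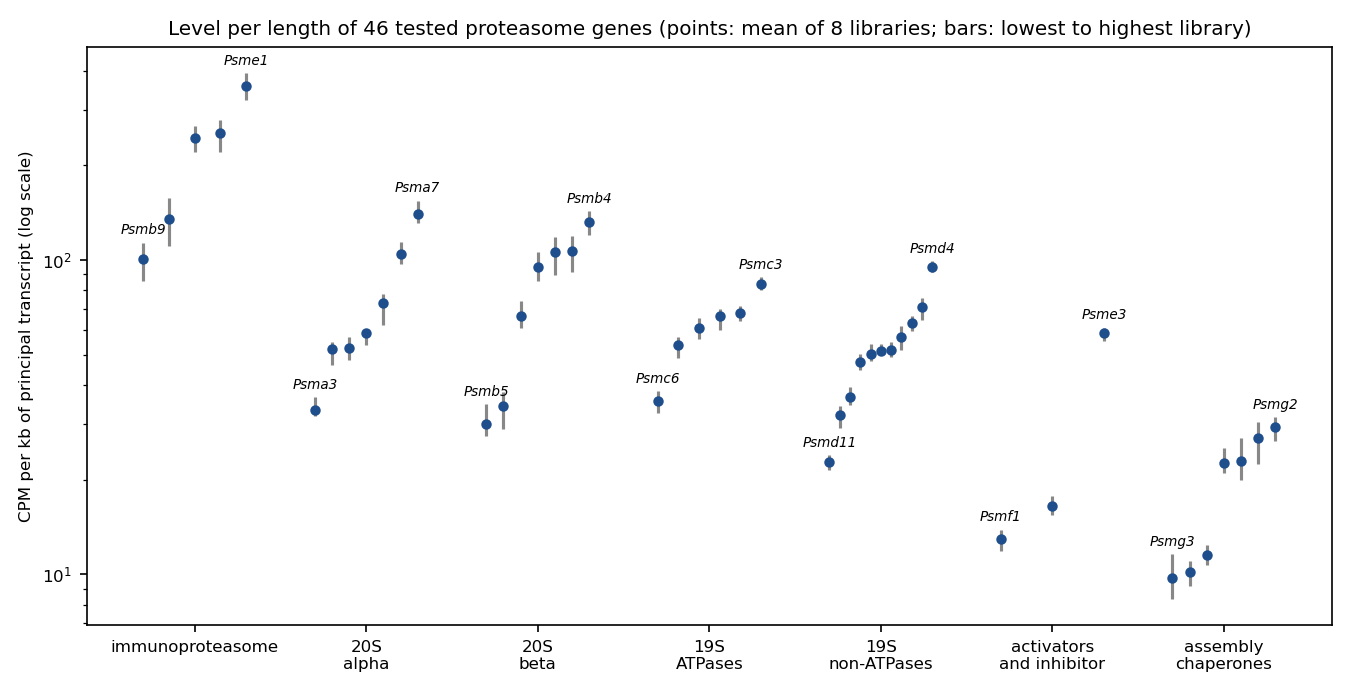
Levels of the 46 tested proteasome genes in CPM per kb of principal transcript (log axis), by role; points are means of 8 libraries and bars run from the lowest to the highest library. The immunoproteasome genes reach from Psmb9 at 100.3 to Psme1 at 356, and the chaperones and Psmf1 lie lowest.

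The proteasome genes varied little. The range of the 4 group means had a median of 0.15 on the log2 scale over the 46 members, 0.22 over the 5 immunoproteasome genes and 0.15 over the other 41, against 0.30 over all genes tested. Members were also more abundant than most genes (median log2 CPM 6.52 against 4.84). The largest range among the members was 0.40, in Psmb10. Together the 5 immunoproteasome genes made up 26.1% to 29.5% of all member counts in a library.

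The first comparison asks how the subsets differ. Of the constitutive core genes 8 of 14 were higher in MP than in TN cells and 0 lower (57.1% called). Of the regulatory particle genes 4 of 17 were higher and 1 lower (29.4%). Of all 12313 genes tested, 2857 were higher and 2723 lower (45.3%). Whether the particles differ was not tested. Across both genotypes (4 MP against 4 TN libraries, genotype as covariate), 14 members were higher and 1 was lower in MP out of 46, 32.6%, where 45.3% of all genes tested were called (edgeR quasi-likelihood test, Benjamini-Hochberg adjusted p under 0.05). The share of members called was thus below the background. The median log2 difference was 0.06 over the members and -0.0023 over all genes. The largest difference of a member was 0.25.

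Sums of several marker lists differed between the subsets. Whether these transcripts came from other cells or from the CD8 T cells themselves was not tested. The NK cell list held Ncr1, Klrb1c and Eomes. The 3 NK cell genes summed to 43.2 to 50.0 CPM in WT-TN and 30.9 to 38.2 in mCre-TN, against 217 to 229 in WT-MP and 185 to 208 in mCre-MP, and all 3 were higher in MP in both genotypes. The 4 proliferation genes summed to 15.4 to 17.8 CPM in TN and 21.8 to 38.2 in MP, with 1 of 4 higher in WT and 3 of 4 in mCre. The 3 CD4 T cell genes summed to 2.96 to 4.32 CPM in TN and 16.3 to 21.9 in MP, and of the 2 tested, 1 was higher and 1 lower in MP in WT, and 1 was higher and 0 lower in mCre. The 6 B cell genes summed to 16.6 to 21.3 CPM in TN and 23.3 to 25.5 in MP, with 1 of 4 tested higher in each genotype. No gene of any marker list was at 0 in all libraries, and the part of these markers in the result was not tested. In such bulk samples a changed mix of cells and a changed amount of RNA per cell cannot be told apart.

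Among the constitutive beta subunits 5 of 7 were higher in MP (71.4% called, against 45.3% of all genes). All 7 estimates were positive (median 0.19), as were 6127 of those of the 12313 genes tested. Psmb1, a structural beta subunit, had 177 and 182 CPM (here and below in the order of replicates 1 and 2) in TN and 206 and 192 in MP of WT, and 161 and 165 in TN and 209 and 204 in MP of mCre. All 4 MP libraries lay above all 4 TN libraries, and the difference was 0.25 ± 0.041 (SE; edgeR adjusted p = 3.78e-05). Psmb3, another structural beta subunit, had 68.4 and 82.0 CPM in TN and 85.9 and 87.7 in MP of WT, and 72.3 and 75.8 in TN and 88.7 and 90.4 in MP of mCre. The MP and TN libraries again did not overlap (0.24 ± 0.047, edgeR adjusted p = 2.39e-04). Psmb6, the constitutive caspase-like subunit, had 68.4 and 71.2 CPM in TN and 77.6 and 82.7 in MP of WT, and 68.8 and 73.6 in TN and 84.4 and 81.4 in MP of mCre, again with every MP library above every TN library (0.21 ± 0.041, edgeR adjusted p = 2.16e-04). Psmb2 was higher by 0.16, and Psmb5, the constitutive chymotrypsin-like subunit, by 0.19. Psmb5 had 25.2 and 24.8 CPM in TN and 26.5 and 31.3 in MP of WT, and 26.1 and 25.05 in TN and 26.5 and 30.7 in MP of mCre, so that in each genotype 1 MP library lay well above the TN libraries and the other close to them. Psmb7, the constitutive trypsin-like subunit, and Psmb4 were not called.

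Of the alpha subunits, which form the outer rings and the gate of the core, 3 of 7 were higher in MP: Psma1 (0.16), Psma2 (0.11) and Psma6 (0.10). That share (42.9%) was near the 45.3% called over all genes. Psma2 had 140.0 and 145 CPM in TN and 152 and 156 in MP of WT, and 147 and 156 in TN and 166 and 162 in MP of mCre, with the subsets apart within each genotype.

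The 17 tested genes of the regulatory particle had a median of 0.04. The ATPases Psmc2 (0.15) and Psmc6 (0.11) were higher. Psmc2 had 91.8 and 91.9 CPM in TN and 99.3 and 101.5 in MP of WT, and 92.1 and 86.9 in TN and 101.5 and 101.0 in MP of mCre, and every MP library exceeded every TN library. Psmd14, the deubiquitinase of the lid, was higher by 0.17 ± 0.040 (edgeR adjusted p = 0.0014) and Psmd13, another lid subunit, by 0.11. Psmd8, also a lid subunit, was the only member lower in MP (-0.12 ± 0.036, edgeR adjusted p = 0.0125), with 112.4 and 112.2 CPM in TN and 99.2 and 103.7 in MP of WT, and 113 and 117 in TN and 106 and 110.5 in MP of mCre. None of the 3 activators and inhibitors was called, where 45.3% of all genes were. Among the 7 chaperones Psmd10, which helps to assemble the ATPase ring, was the 1 called (14.3%), and it was higher (0.18).

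**Figure D2:**
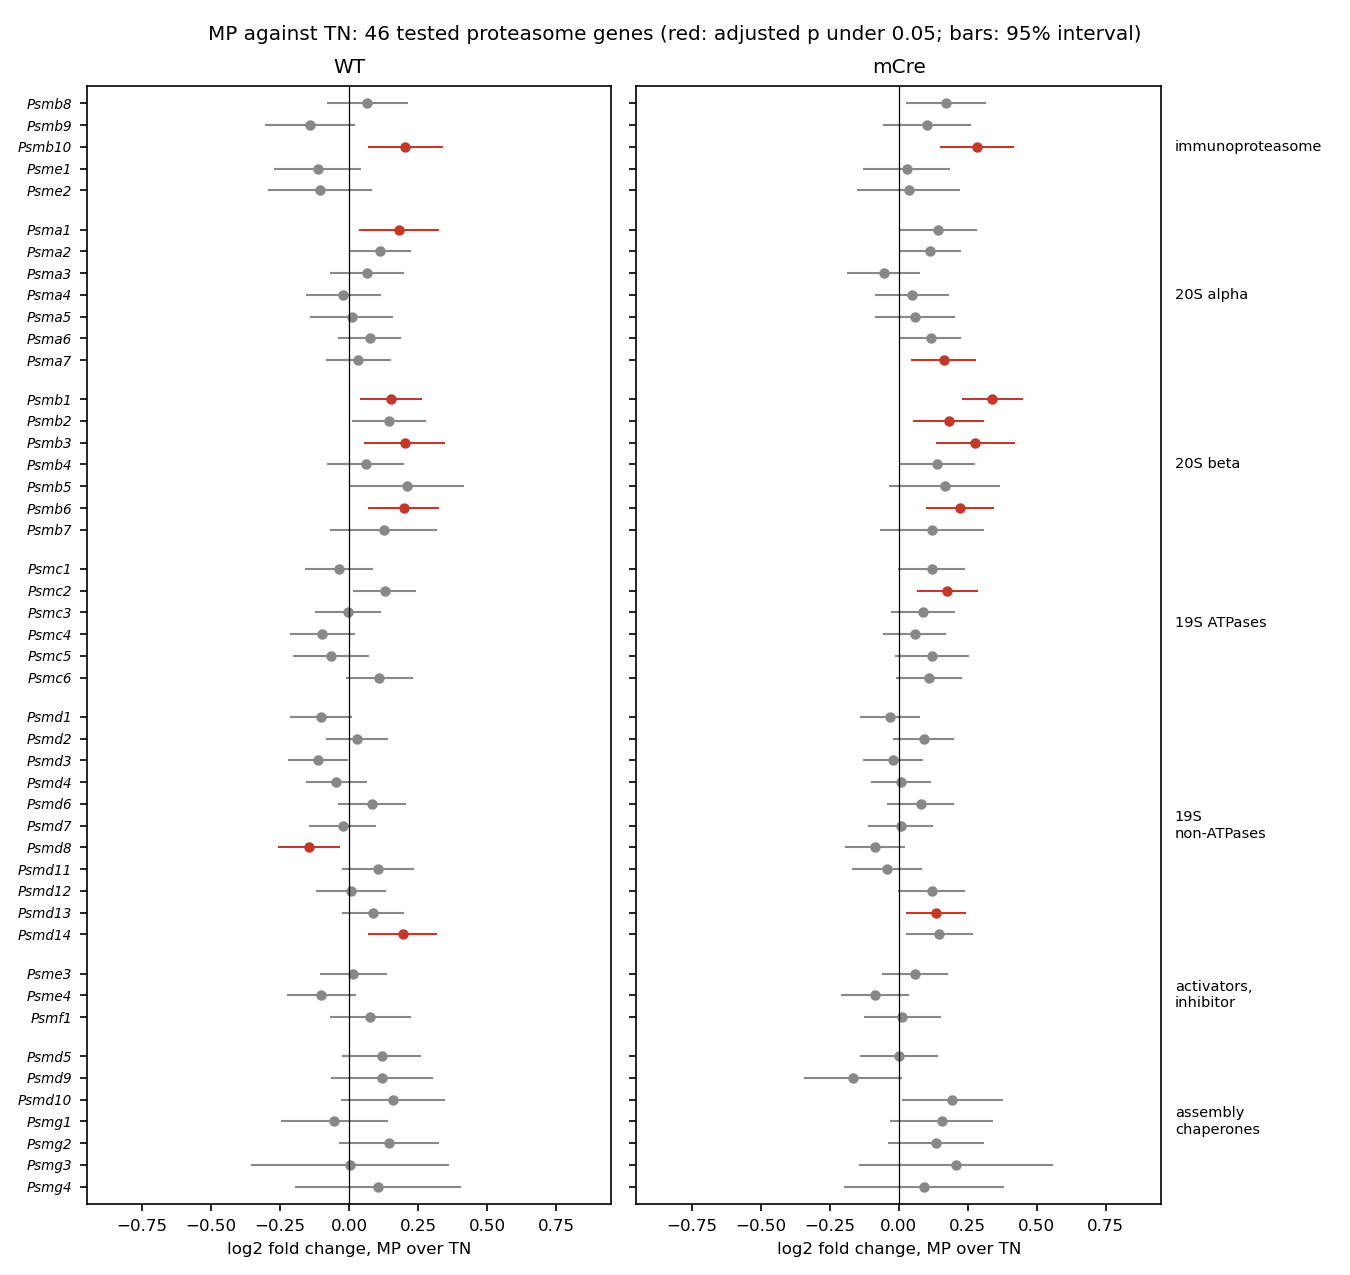
Log2 fold change of MP over TN for the 46 tested proteasome genes, in WT and in mCre separately, by role; bars are 95% intervals and coloured points have an edgeR adjusted p under 0.05. The called points are 6 higher and 1 lower in WT and 8 higher in mCre, most of them Psmb genes.

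Within the WT libraries alone, 6 members were higher and 1 was lower (15.2% of 46, against 31.7% of all genes). Within mCre, 8 were higher and 0 lower (17.4%, against 32.5%). Psmb1, Psmb3, Psmb6 and Psmb10 were called in both genotypes, which have no library in common; these 4 were 57.1% of the WT calls and 50% of the mCre calls, where over all genes the shares were 75.4% and 73.6%. Psma1, Psmd14 and Psmd8 were called in WT, and Psmb2, Psma7, Psmc2 and Psmd13 in mCre, and none of these differed between the genotypes by the interaction test. A fit without a library leaves 1 in its group, and the share of all genes called in it was not counted. A lower count there cannot be read as a trait of these members. The WT count changed when single libraries were left out. Without WT-TN replicate 1 it was 2 (Psme1 and Psme2, both lower), without WT-MP replicate 1 it was 4, and without WT-MP replicate 2 it was 1 (Psmb1). The mCre count was 4 without mCre-TN replicate 1 or mCre-MP replicate 1, and 5 without mCre-MP replicate 2. With DESeq2 the count was 2 (Psmd14 and Psmb10) in WT and 4 in mCre. None of the 7 WT calls held under every alternative run, whereas Psmb1, Psmb3 and Psmb10 did in mCre, and Psma1, Psma2, Psmb1, Psmb2, Psmb3, Psmb6, Psmb10, Psmc2 and Psmd14 did across genotypes.

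The immunoproteasome genes did not move as a group between the subsets. Psmb10 was higher in MP. Its levels were 146 and 166 CPM in TN and 171 and 188 in MP of WT, and 163 and 174 in TN and 207 and 203 in MP of mCre. The subsets did not overlap within a genotype, although mCre-TN replicate 2 exceeded WT-MP replicate 1, and the difference was 0.24 ± 0.044 across genotypes (edgeR adjusted p = 9.71e-05), 0.20 ± 0.063 in WT (0.0188) and 0.28 ± 0.062 in mCre (0.00166). The WT call was lost without WT-TN replicate 1 or without WT-MP replicate 2. The other 4 genes were not called in either genotype. Psmb8 had 358 and 422 CPM in TN and 398 and 419 in MP of WT, and 383 and 416 in TN and 446 and 453 in MP of mCre, with a difference of 0.12 across genotypes (edgeR adjusted p = 0.0528). Psmb9 was at -0.14 in WT and 0.10 in mCre, Psme1 at -0.11 and 0.03, and Psme2 at -0.11 and 0.04. Over the 5 genes the median was -0.11 in WT and 0.10 in mCre, and over the other 41 members 0.07 and 0.11.

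The TN replicates stood apart for these genes, though in WT-TN not for these alone. The 5 summed to 1200 and 1402 CPM in WT-TN and to 1288 and 1436 in mCre-TN. The other 43 members summed to 3390 and 3536 in WT-TN and to 3401 and 3435 in mCre-TN. In WT-TN, Psma1 (74.8 and 90.0) and Psmb3 (68.4 and 82.0) also differed, whereas Psmd8 (112.4 and 112.2) did not. In both TN groups replicate 2 had more of all 5 immunoproteasome genes than replicate 1. Psme1, for example, had 358 and 423 CPM in WT-TN and 389 and 436 in mCre-TN. In MP it had 358 and 364 in WT and 415 and 426 in mCre. Psme2 had 211 and 253 in TN and 213 and 219 in MP of WT, and 225 and 257 in TN and 242 and 252 in MP of mCre. Among the regulators of these genes, Nlrc5, the activator of MHC class I genes, had 397 and 426 CPM in TN and 294 and 297 in MP of WT, and 428 and 569.5 in TN and 389 and 419 in MP of mCre. Nlrc5 was thus also higher in replicate 2 of each TN group, and its part in the result was not tested. The signs of Psme1 and Psme2 between subsets depended on these libraries: without WT-TN replicate 2 they were 0.02 and 0.04 in WT, and without mCre-TN replicate 1 they were -0.05 and -0.06 in mCre.

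**Figure D3:**
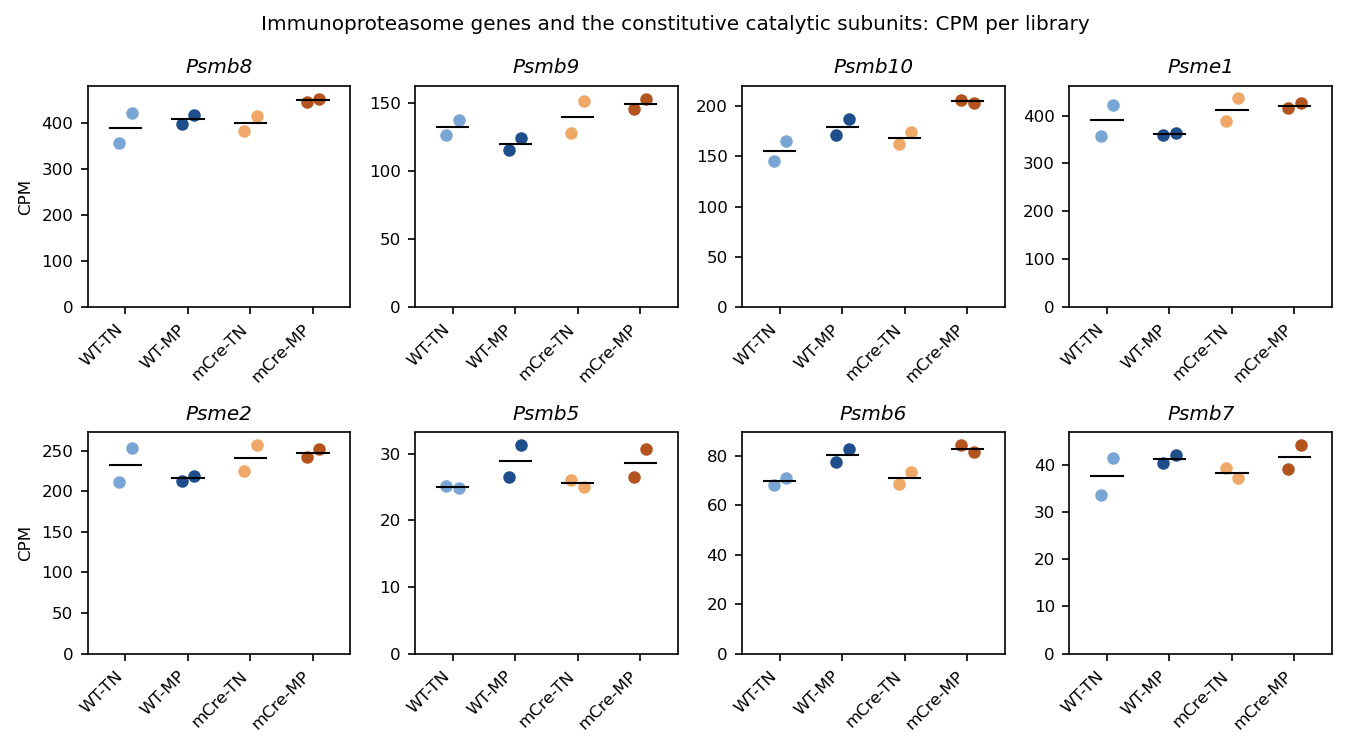
CPM per library (points) and group mean (lines) of the 5 immunoproteasome genes and of the 3 constitutive cutting subunits, by group; each axis starts at 0. Psmb9 lies at 116 and 125 CPM in WT-MP and at 146 and 153 in mCre-MP, and the 2 TN libraries of a group lie far apart for Psme1 and Psme2.

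The second comparison asks whether the mCre genotype changed the proteasome genes. In TN cells, 0 of 46 members were called, where 3.47% of all genes were (edgeR, with 1 member at an unadjusted p under 0.05; DESeq2 and limma-voom also called 0). That member was Psmb1, at -0.13 with an interval of -0.24 to -0.03. The 5 immunoproteasome genes were at 0.03 to 0.11, and the widest of their 95% intervals, that of Psme2, ran from -0.13 to 0.24.

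In MP cells, Psmb9 was the 1 member called (2.17% of 46, where 4.04% of all genes were called), and it was higher in mCre. Psmb9, the subunit that replaces Psmb6, had 116 and 125 CPM in WT-MP and 146 and 153 in mCre-MP, beside 127 and 138 in WT-TN and 128 and 152 in mCre-TN. The 2 genotypes did not overlap in MP and did overlap in TN. The difference in MP was 0.32 ± 0.074 (SE), or 1.25-fold with a 95% interval of 0.16 to 0.48 on the log2 scale (edgeR adjusted p = 0.0265). Leaving out any of the 4 MP libraries kept the estimate between 0.26 and 0.37 but took away the call (edgeR adjusted p 0.0805 to 0.241). The 6 red pulp macrophage genes summed to 20.3 to 29.1 CPM in TN and 17.5 to 31.5 in MP of WT, against 8.57 to 11.1 in TN and 10.7 to 11.8 in MP of mCre. Of these 6 genes, 3 were lower in mCre in TN and 2 in MP. The 5 erythroid genes summed to 21.8 to 22.5 CPM in TN and 13.3 to 22.2 in MP of WT, against 25.7 to 60.2 in TN and 24.1 to 45.04 in MP of mCre, with 0 of 4 tested called in either subset. The 6 myeloid genes summed to 20.01 to 27.5 CPM in WT and 17.1 to 19.4 in mCre, with 1 of 6 lower in mCre in TN and 0 called in MP. The part of these markers in the result was not tested.

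The other 4 immunoproteasome genes had positive estimates in MP without passing the test over all genes. Psme1 was at 0.22 ± 0.071 (edgeR adjusted p = 0.116), Psmb10 at 0.19 ± 0.062 (0.104), Psme2 at 0.19 ± 0.083 (0.264) and Psmb8 at 0.14 ± 0.067 (0.300). For each of the 5 genes both mCre-MP libraries lay above both WT-MP libraries. How many of all genes separated in this way was not counted, so this is a description only. The median over the 5 was 0.19, against 0.01 over the other 41 members and 0.00 over all genes. At an unadjusted p under 0.05 there were 8 of 46 members (4 of them immunoproteasome genes, and Psmd1, Psmd12, Psmd5 and Psmg1) and 2132 of all 12313 genes, about the same share. With no filter on low counts, or with the MP libraries fitted alone, Psme1, Psme2 and Psmb10 were called beside Psmb9. The share of all genes called in those fits was not counted, so the added calls are a description only.

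**Figure D4:**
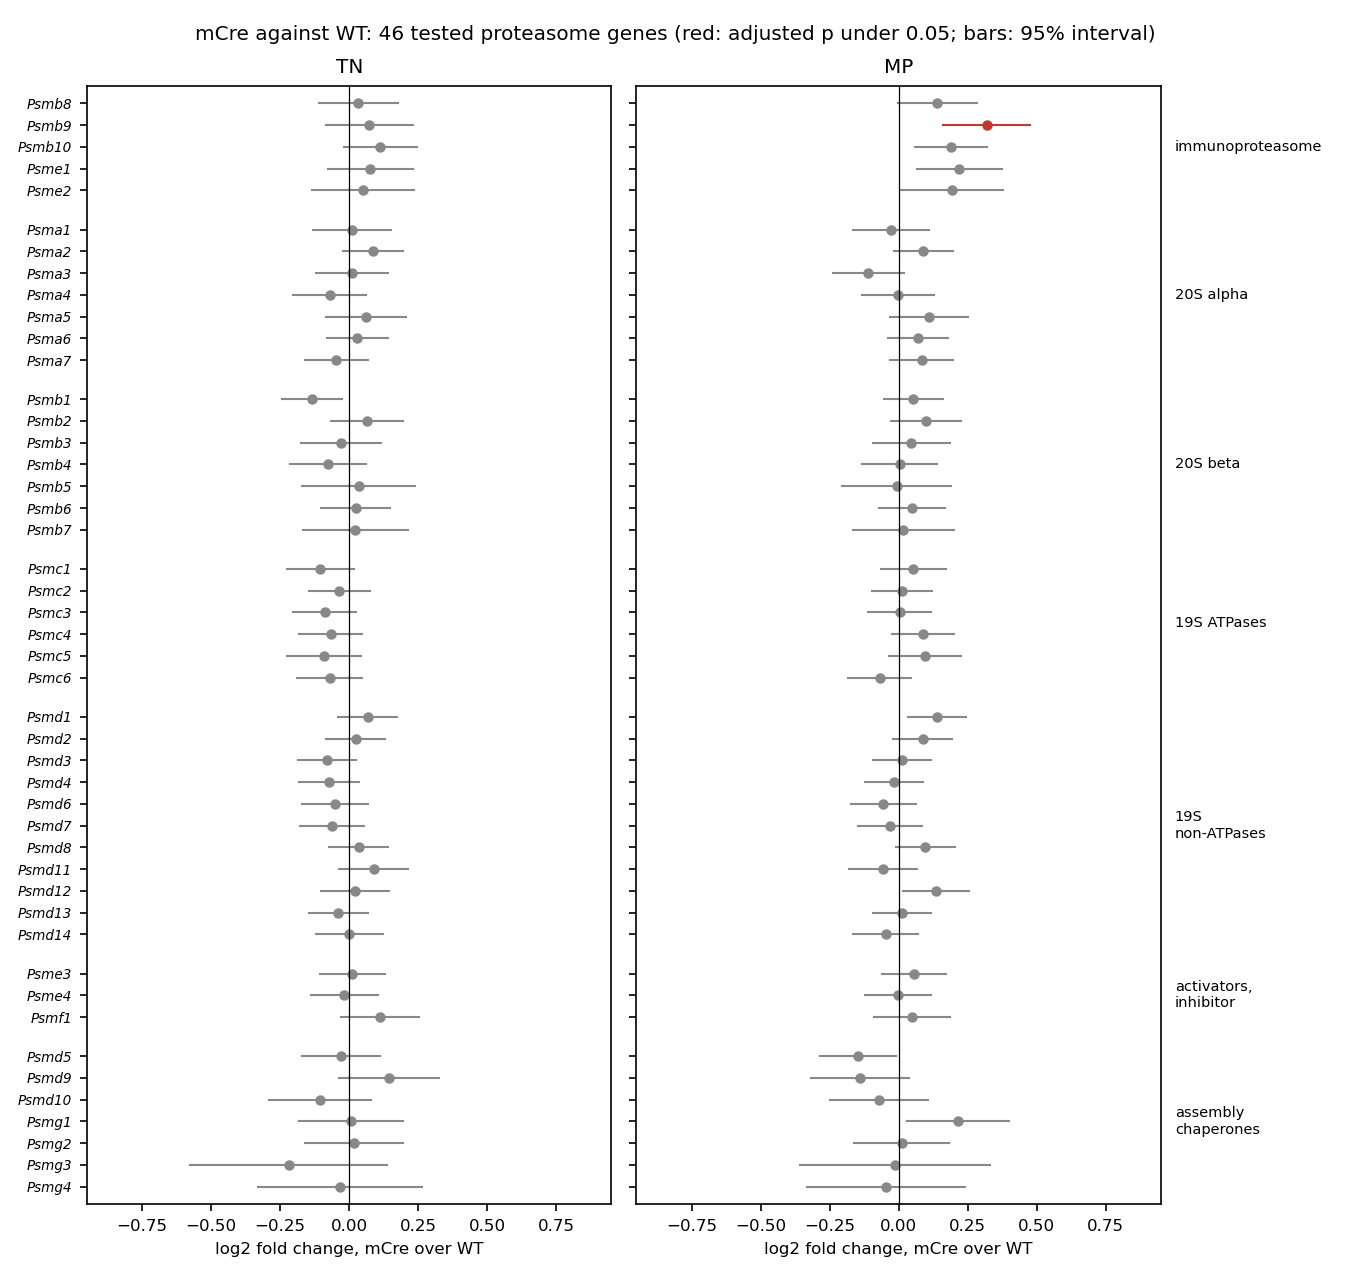
Log2 fold change of mCre over WT for the 46 tested proteasome genes in TN and in MP, by role; bars are 95% intervals and red marks an edgeR adjusted p under 0.05. In TN no point is red, and in MP the 5 immunoproteasome genes lie between 0.14 and 0.32 with Psmb9 in red.

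Across both subsets (4 mCre against 4 WT libraries, subset as covariate), Psmb10 was the 1 member called, where 11.0% of all genes were, and it was higher in mCre by 0.15 ± 0.044 (edgeR adjusted p = 0.0295). Psmb9 was at 0.20 (0.114), Psme1 at 0.15 (0.103), Psme2 at 0.12 (0.256) and Psmb8 at 0.09 (0.284). The number called ran from 0 to 5 when single libraries were left out. It was 5, all of them immunoproteasome genes, without WT-TN replicate 2, and 4 without mCre-TN replicate 1. It was 0 without WT-TN replicate 1, WT-MP replicate 1, mCre-TN replicate 2 or either mCre-MP library. Of the 41 other tested members 0 were called in TN, in MP or across subsets, where 3.47%, 4.04% and 11.0% of all genes were. None was called with other tools, scaling or filters either. Those runs used the same 8 libraries, and the share of all genes called in them was not counted. This does not show that a genotype difference was confined to the immunoproteasome genes.

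Whether the genotype difference itself differed between subsets was tested by the interaction, and 0 of 46 members passed (edgeR, 3 at an unadjusted p under 0.05; 0.130% of all genes were called, and DESeq2 and limma-voom called 0 members). Psmb9 was at 0.24 with an interval of 0.02 to 0.47 (edgeR adjusted p = 0.816), Psmb1 at 0.19 and Psmd9, an assembly chaperone, at -0.28. The call of Psmb9 in MP and not in TN does therefore not show a difference between the subsets.

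The ratio of an immunoproteasome subunit to the constitutive subunit that it replaces does not depend on library scaling. Counts of Psmb8 to Psmb5 stood at 15.6 ± 1.98 (SD, n = 2) in TN and 14.2 ± 1.16 in MP of WT, and at 15.7 ± 1.36 in TN and 15.8 ± 1.44 in MP of mCre, and all groups overlapped. For Psmb9 to Psmb6, the WT-MP libraries had 1.49 and 1.51, below the other 6, which lay between 1.73 and 2.06. The group means were 1.90 ± 0.0603 in WT-TN, 1.96 ± 0.142 in mCre-TN and 1.81 ± 0.104 in mCre-MP. Psmb10 to Psmb7 stood at 4.16 ± 0.238 in TN and 4.35 ± 0.146 in MP of WT, and at 4.41 ± 0.390 in TN and 4.95 ± 0.472 in MP of mCre, and mCre-MP overlapped mCre-TN but not WT-MP. Per kilobase of principal transcript the group means were 7.84 to 8.72, 0.886 to 1.16 and 3.68 to 4.38 for the 3 pairs. Per kilobase of all exons they were 3.78 to 4.20, 0.767 to 1.00 and 8.35 to 9.92, so that the order of Psmb9 and Psmb6, unlike that of the other pairs, depended on the choice of length. These are ratios of mRNA, and subunit protein was not measured.

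**Figure D5:**
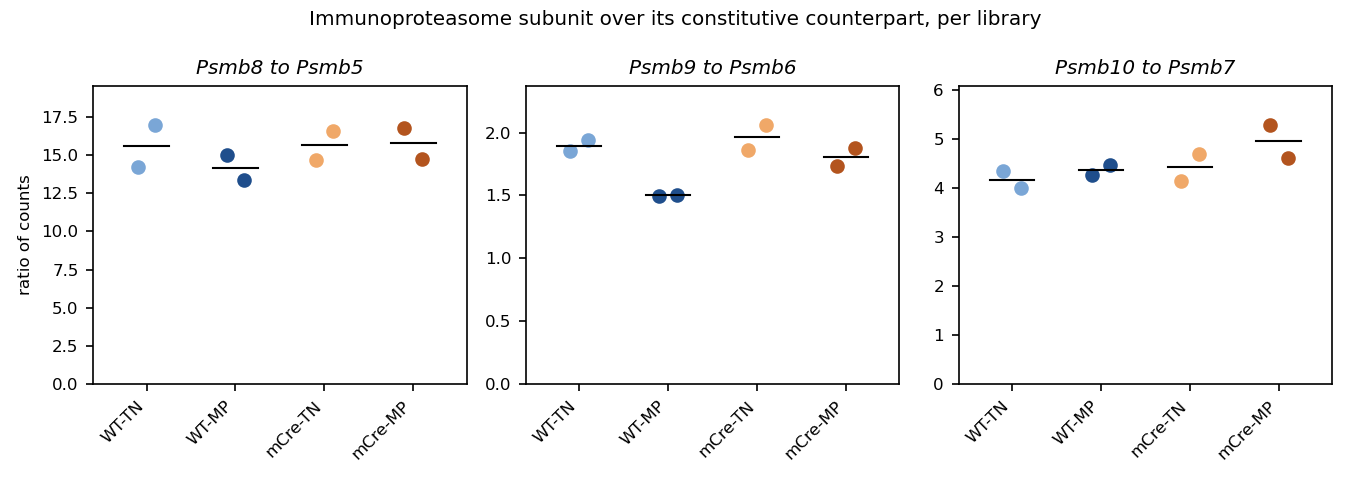
Ratio of counts of Psmb8 to Psmb5, Psmb9 to Psmb6 and Psmb10 to Psmb7 per library (points) with group means (lines); each axis starts at 0. For Psmb9 to Psmb6 the WT-MP points at 1.49 and 1.51 lie below all others.

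Of the 11 tested genes of MHC class I antigen processing, which use the peptides made by the immunoproteasome, 1 was higher and 1 lower in MP in WT (18.2% called, against 31.7% of all genes), and 6 were higher and 1 lower in mCre (63.6%, against 32.5%). In the interaction test 0 of the 11 were called, where 0.130% of all genes were, so these shares do not show a difference between the genotypes. Tap2 was lower in MP in both genotypes (-0.33 in WT and -0.21 in mCre). Tap1, which shares its promoter window with Psmb9, had 317 and 344 CPM in TN and 267 and 285 in MP of WT, and 336 and 415 in TN and 332 and 348 in MP of mCre. As for Psmb9, WT-MP held the lowest 2 libraries. Tap1 was higher in mCre across subsets (0.24 ± 0.064, edgeR adjusted p = 0.0413), as were Tapbp, Erap1 and Canx. These were 4 of 11 (36.4%, against 11.0% of all genes), and 0 were lower. Within TN 0 were higher and 1 was lower in mCre (9.09%, against 3.47%), namely H2-K1 (-0.25, edgeR adjusted p = 0.00827). Within MP 1 was higher and 0 lower (9.09%, against 4.04%), namely Calr (0.28, edgeR adjusted p = 0.0151). The estimate of Tap1 in MP was 0.30 and was not called (edgeR adjusted p = 0.123).

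Of 11 regulators of immunoproteasome genes, 2 were higher and 1 lower in mCre in TN (27.3% called, against 3.47% of all genes), and 2 were higher and 0 lower in MP (18.2%, against 4.04%). Stat2 and Irf9, partners in the interferon-stimulated complex, were higher in mCre in both subsets. Irf9 had 91.6 and 105 CPM in TN and 83.2 and 92.7 in MP of WT, and 118 and 127 in TN and 121.1 and 120.9 in MP of mCre, with all mCre libraries above all WT libraries; the difference was 0.31 in TN and 0.46 in MP (edgeR adjusted p = 0.0142 and 4.28e-04). Stat2 was higher by 0.33 and 0.31. Ifngr1, a chain of the interferon-gamma receptor, was lower in mCre-TN (-0.31). Between subsets the 2 chains of that receptor moved in opposite directions: Ifngr1 was higher in MP by 1.17 in WT and 1.30 in mCre, and Ifngr2 was lower, at -4.10 and -3.20. Ifngr2 had 32.0 to 39.7 CPM in TN and 2.25 to 4.69 in MP.

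Of the 23 tested assembly, accessory and regulatory genes, 2 were higher and 2 lower in MP in WT (17.4% called, against 31.7% of all genes), and 2 higher and 3 lower in mCre (21.7%, against 32.5%). Ecpas, an adaptor of the 26S particle (0.29 and 0.21), and Nfe2l2, a transcription factor that can drive proteasome genes (0.30 and 0.22), were higher in both genotypes, and Zfand5, a proteasome activator (-0.26 and -0.31), and Ubqln4, a ubiquitin shuttle (-0.19 and -0.22), were lower in both. Nfe2l1, the factor that raises proteasome genes when proteasome activity falls, was slightly lower in MP across genotypes (-0.09, edgeR adjusted p = 0.0493), and the core assembly factor Pomp was at 0.04 (0.386). In the genotype comparisons 0 of the 23 were called in TN, in MP or across subsets, where 3.47%, 4.04% and 11.0% of all genes were. In TN and in MP, 23 genes are too few to tell 0 from that share. Of the 4 ubiquitin genes, Ubb was higher in mCre across subsets (0.14), the 1 called (25%, against 11.0% of all genes). Between subsets 0 of the 4 were called, where 31.7% (WT), 32.5% (mCre) and 45.3% (across genotypes) of all genes were.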

How the data were processed

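Counts of reads per gene symbol were deposited by the authors as whole numbers for all 8 libraries; per the submitters' processing notes, Trim Galore, HISAT2 and featureCounts were used with mm10. Versions, annotation, strand setting and treatment of multiply mapped reads were not given in the sources used here. The whole table was fitted with edgeR 4.0.16 in R 4.3.3 (TMM scaling, expression filter, robust quasi-likelihood F test, two-sided). The main model had 4 group means with 2 libraries each; additive models gave the differences across subsets or genotypes. P-values were Benjamini-Hochberg adjusted over 12313 genes and called under 0.05, with no fold threshold. Differences are log2, MP over TN or mCre over WT, and intervals are 95%. CPM used TMM-scaled totals. P-values of the main model rest on the spread between the 2 libraries of each group, moderated by that of all genes. This spread may be technical. In the additive models it also holds any difference of the genotype effect between the subsets. The spread between replicates exceeded sampling noise (chi-square per degree of freedom 4.20 to 6.26). Alternatives used DESeq2 1.42.0, limma 3.58.1 (voom), other scaling and filters, and libraries left out; division by the principal transcript length was added after seeing the data. Gene models came from GENCODE M21, promoters from RefSeq, read with Biopython 1.88. The procedure was tested on simulated data. A gene of the companion lists that was measured is not reported here. All members are accounted for; those named with values were the immunoproteasome genes, their constitutive counterparts, up to 4 per role with the smallest p, members called in a genotype comparison, and up to 4 genes per companion list and comparison. Members and lists were chosen with earlier results of these data known.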

Additional observations from a re-analysis of the deposited data

How the results depend on the processing

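None of the 32 called results for single proteasome genes changed sign in 496 alternative values, and 96 of those values lost the call. The number of members called was 2 in WT between subsets with DESeq2, and in mCre 5 with total counts and 4 with DESeq2. Between genotypes in MP it was 4 with no filter on low counts, 4 with only the 2 groups compared and 3 with a replicate block. Across subsets it was 4 with no filter, 2 with DESeq2 and 3 with the block. The cause was not tested. The share of all genes called was not counted in these runs or in those with single libraries left out. Same-numbered libraries deviated together weakly over all genes tested (correlations -0.0446 to 0.109). These correlations cannot tell whether same-numbered libraries shared an animal or a batch.

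With single libraries left out, the numbers called ran from 1 to 8 (subsets in WT), 4 to 11 (subsets in mCre), 0 to 2 (genotypes in MP), 0 to 5 (across subsets) and 10 to 18 (subsets across genotypes). The median of the immunoproteasome genes minus that of the other members ran from -0.23 to -0.086 (subsets in WT), -0.11 to 0.11 (subsets in mCre), -0.0048 to 0.16 (genotypes in TN) and -0.15 to -0.052 (subsets across genotypes). The log2 ratios of Psmb8, Psmb9 and Psmb10 to their counterparts, 3.93, 0.83 and 2.15 as counts, were 2.02, -0.13 and 3.16 per kilobase of all exons and 3.08, 0.073 and 1.98 per kilobase of principal transcript.

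Alternatives were run for the 5 immunoproteasome genes and the called members; the signs that changed were those of immunoproteasome estimates that were not called. With single libraries left out, the estimates between subsets in WT ran from -0.038 to 0.20 (Psmb8), -0.22 to 0.019 (Psme1) and -0.22 to 0.039 (Psme2). In mCre they ran from -0.016 to 0.23 (Psmb9), -0.049 to 0.11 (Psme1) and -0.055 to 0.14 (Psme2), and Psme1 was -0.0037 with total counts. Across genotypes they ran from -0.085 to 0.040 (Psmb9), -0.082 to 0.029 (Psme1) and -0.080 to 0.042 (Psme2). Between genotypes in TN they ran from -0.080 to 0.16 (Psmb8), -0.051 to 0.20 (Psmb9), -0.038 to 0.20 (Psme1) and -0.072 to 0.19 (Psme2), and in the interaction from -0.018 to 0.21 (Psmb8) and -0.020 to 0.16 (Psmb10).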
